A study of Mus musculus with 76 samples.

Results

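Hmgcs1, Idi1, Fdft1, Sqle, Lss, Dhcr7 and Insig1 were followed in the dorsal forebrain of mouse embryos whose father, mother or both parents received the pyrethroid α-cypermethrin, an insecticide, before mating. The first 6 genes encode enzymes of cholesterol synthesis and Insig1 encodes a brake on the pathway. The 7 genes are a listed set, matched by gene identifier and mouse symbol. All 7 were among the 14823 genes of the count table and among the 14339 genes tested.

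RNA of the dorsal forebrain was sequenced at embryonic day 16 from C57BL/6J embryos. Adult mice were treated for 28 days, first for 7 days without a break and then in 3 cycles of 2 days off and 5 days on, and were paired directly afterwards. Embryos of an exposed father and a vehicle-treated mother formed Paternal_0.3Cyp (n = 12) and Paternal_10Cyp (n = 10). Embryos of an exposed mother and a vehicle-treated father formed Maternal_0.3Cyp (n = 12) and Maternal_10Cyp (n = 8). With both parents exposed to the same dose the groups were Both_0.3Cyp (n = 12) and Both_10Cyp (n = 10), and Ctrl (n = 12) had 2 vehicle-treated parents. The labels give the doses as 0.3 and 10 without a unit. Every group held both sexes and both labelled batches. The labels do not say which embryos were littermates, so the p-values measure the spread between these embryos and not between litters.

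Cholesterol is built inside the cell from acetyl-CoA by way of mevalonate, squalene and lanosterol, and most of the cholesterol of the mature brain is made in place because the blood-brain barrier keeps lipoproteins out. When sterols run low, Scap carries the transcription factor SREBP-2 from the endoplasmic reticulum to the Golgi, where proteases release it to switch on the genes of the pathway. Insig1 retains Scap in the endoplasmic reticulum when sterols are plentiful, and the Insig1 gene is itself a target of SREBPs.

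The promoters of a pathway that shares a transcription factor can be read side by side, so the windows of 3 genes that were lower in several groups and of 2 that were not called in any are shown here. RefSeq gives promoter windows for Hmgcs1, Lss, Dhcr7, Idi1 and Insig1 on build GRCm38.p6, each on the plus strand and running from 250 bases before the annotated start to 50 bases after it. Sqle and Fdft1 were not matched. Capitals mark TCACNCCA, the core of the sterol regulatory element that SREBPs bind, and CCAAT, the Y box bound by NF-Y, each searched on both strands. Where a gene had several windows, the one nearest the start of its principal transcript is printed.
Hmgcs1 (chr13:119690101-119690400): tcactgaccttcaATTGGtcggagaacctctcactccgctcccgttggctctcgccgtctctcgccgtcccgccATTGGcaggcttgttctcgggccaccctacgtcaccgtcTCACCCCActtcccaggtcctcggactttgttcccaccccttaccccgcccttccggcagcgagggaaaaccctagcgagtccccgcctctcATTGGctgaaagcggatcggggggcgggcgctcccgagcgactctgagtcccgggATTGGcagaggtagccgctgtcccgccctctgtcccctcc
Lss (chr10:76531355-76531654): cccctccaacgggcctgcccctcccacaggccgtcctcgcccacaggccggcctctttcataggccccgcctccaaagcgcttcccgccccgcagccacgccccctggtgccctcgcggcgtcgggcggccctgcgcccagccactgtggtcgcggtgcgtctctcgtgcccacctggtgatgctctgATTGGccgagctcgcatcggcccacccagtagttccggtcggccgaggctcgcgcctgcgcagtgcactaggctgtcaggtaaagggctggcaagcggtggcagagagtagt
Dhcr7 (chr7:143822917-143823216): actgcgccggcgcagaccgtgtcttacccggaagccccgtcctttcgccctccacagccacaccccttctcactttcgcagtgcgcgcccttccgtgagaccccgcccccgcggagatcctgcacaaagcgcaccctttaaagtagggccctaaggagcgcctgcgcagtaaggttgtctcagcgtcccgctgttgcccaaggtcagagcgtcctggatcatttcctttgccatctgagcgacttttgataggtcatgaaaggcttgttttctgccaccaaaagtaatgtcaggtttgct
Idi1 (chr13:8885356-8885655): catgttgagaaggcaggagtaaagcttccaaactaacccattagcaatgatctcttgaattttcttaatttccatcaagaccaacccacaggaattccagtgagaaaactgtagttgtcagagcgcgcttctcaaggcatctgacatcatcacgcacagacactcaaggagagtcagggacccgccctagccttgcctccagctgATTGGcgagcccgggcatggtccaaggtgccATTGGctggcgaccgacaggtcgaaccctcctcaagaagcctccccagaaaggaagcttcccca
Insig1 (chr5:28071162-28071461): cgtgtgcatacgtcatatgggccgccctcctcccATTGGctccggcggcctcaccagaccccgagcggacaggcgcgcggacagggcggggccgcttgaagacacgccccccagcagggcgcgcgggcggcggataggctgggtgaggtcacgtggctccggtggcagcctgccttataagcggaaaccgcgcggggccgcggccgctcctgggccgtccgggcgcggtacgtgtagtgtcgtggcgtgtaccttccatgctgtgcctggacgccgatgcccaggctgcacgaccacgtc

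The Hmgcs1 window held 1 match to TCACNCCA, starting 137 bases before the start site, and 4 to CCAAT. Among 32851 mouse promoter windows of the same length, 4.36% held TCACNCCA at least once and 1.06% held CCAAT 4 times or more. The Idi1 window held 2 CCAAT matches and those of Lss and Insig1 held 1 each, while 11.7% of all windows held at least 2 and 37.4% at least 1. The printed Dhcr7 window held neither motif. Of the other 2 Dhcr7 windows, the one at chr7:143829964-143830263 held 2 CCAAT and 3 GGGCGG matches, and the one at chr7:143823149-143823448 held none of the 3 motifs. GGGCGG, the GC box, was also searched on both strands and is not capitalised. It occurred 3 times in the windows of Hmgcs1 and Insig1, 2 times in that of Lss, and 1 time in those of Idi1 and the printed Dhcr7 window. Of all windows, 10.7% held it 3 times or more, 19.5% 2 times or more and 35.7% at least once. No match overlapped another. A match is only a run of letters, and a missing match says only that the letters are not in this window.

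Libraries held 17735597 to 41419156 counts, and the 10 Both_10Cyp libraries were deeper (21154587 to 33969582) than the 12 Ctrl libraries (17930254 to 19861390). The 7 genes were well covered, with between 637 counts (Lss, the lowest value) and 22143 counts (Hmgcs1, the highest) in a library. Levels are given as normalised CPM, the counts scaled by TMM library size. Changes are log2 fold changes from 1 edgeR quasi-likelihood fit of all 76 libraries with group, batch and sex, and a gene was called at an adjusted p under 0.05 (Benjamini-Hochberg over the 14339 genes). All 6 comparisons with Ctrl share the same 12 Ctrl libraries, so they are not independent of each other. Of the 76 libraries, 5 were high in embryonic globin RNA, from Hbb-y and Hba-x (2 of Paternal_0.3Cyp, 1 of Both_0.3Cyp, 2 of Both_10Cyp and 0 of Ctrl), and 4 were high in diencephalon markers (2 of Paternal_0.3Cyp, 1 of Paternal_10Cyp and 1 of Ctrl). Counts of called genes that shifted without either set are given below. Values of single genes are given without the high-globin libraries only. In bulk tissue, fewer cells of a type and less RNA per cell cannot be told apart.

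In Ctrl forebrain, Hmgcs1 was the most abundant of the 7 per length, at 179 CPM per kilobase of its principal transcript. Sqle (80.9) and Fdft1 (61.3) followed, then Idi1 (30.1), Insig1 (29.9), Dhcr7 (24.9) and Lss (17.8), all in CPM per kilobase. Whether the estimated counts were already scaled by transcript length is not given in the sources used here. If they were, this order per kilobase would not hold as it stands.

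Hmgcs1 and Dhcr7, near the entry and at the last step of the pathway, were lower than in Ctrl in all 6 exposed groups. Lss, Sqle and Fdft1 were lower in 4 groups each, and Idi1 and Insig1 were called in none. The largest called change was a fall of 23.0% for Hmgcs1 in Maternal_10Cyp.

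Counted by group, 5 of the 7 genes fell in Paternal_0.3Cyp, where 12.2% of all genes tested were called lower by the same edgeR test. The count was 5 of 7 in Maternal_0.3Cyp, against 12.8% of all genes, and 2 of 7 in Both_0.3Cyp, against 11.8%. At dose 10 it was 3 of 7 in Paternal_10Cyp (10.8% of all genes called lower), 5 of 7 in Maternal_10Cyp (20.4%) and 4 of 7 in Both_10Cyp (1.58%). None of the 7 was called higher in any group, while 15.4%, 10.9%, 10.5%, 10.7%, 20.4% and 2.34% of all genes were in the same order. The median log2 fold change of the 7 was -0.14 in Paternal_0.3Cyp, -0.18 in Maternal_0.3Cyp, -0.12 in Both_0.3Cyp, -0.079 in Paternal_10Cyp, -0.18 in Maternal_10Cyp and -0.16 in Both_10Cyp, while the median over all genes lay between -0.013 and 0.011 in every comparison. A joint edgeR test of any difference among the 6 exposed groups and Ctrl called Hmgcs1, Dhcr7, Lss, Sqle and Fdft1, 5 of 7, against 21.7% of all genes. Its adjusted p in edgeR was 0.0033 for Hmgcs1 and 0.000687 for Dhcr7.

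**Figure D1:**
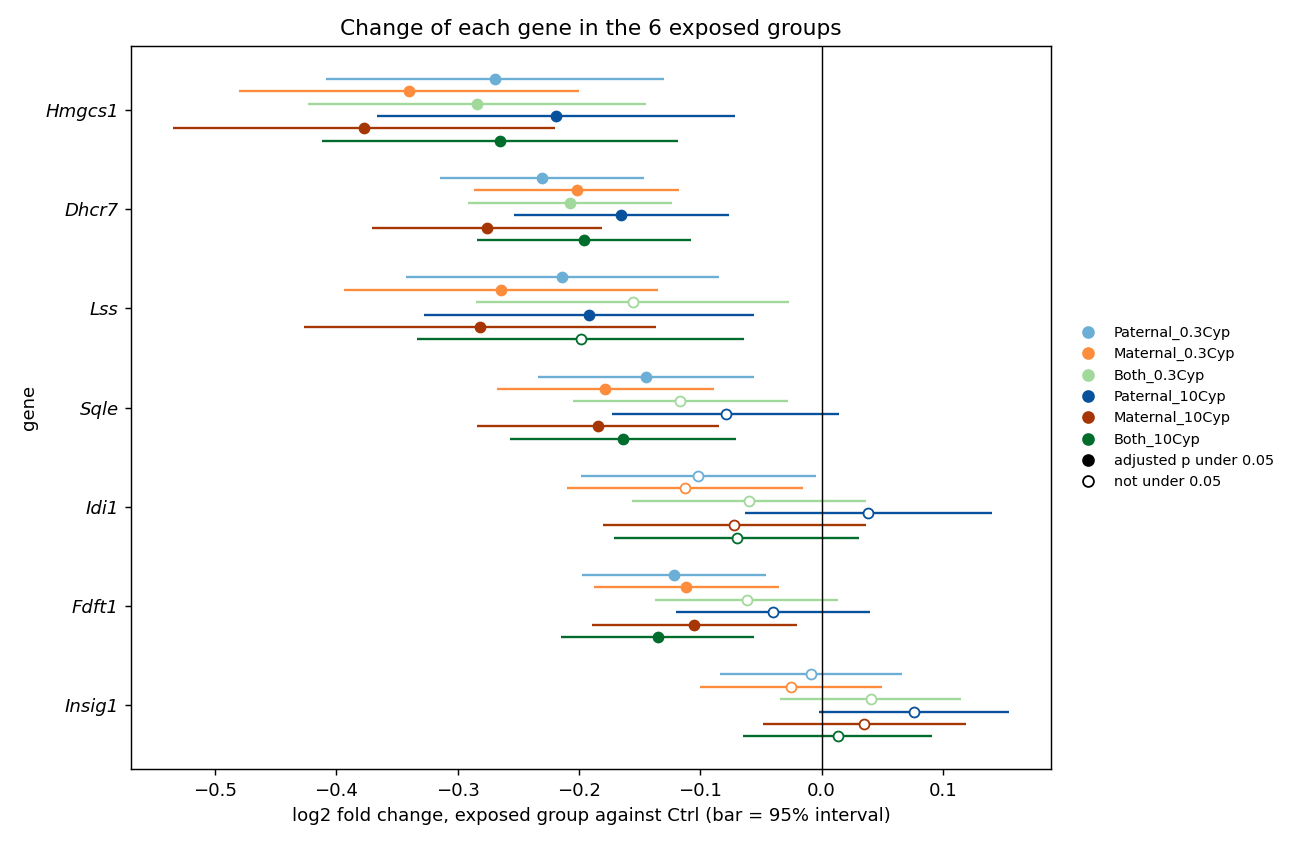
Log2 fold change against Ctrl of each of the 7 genes (rows) in each exposed group (colours), with points at the edgeR estimate and bars for the 95% interval; filled points passed an adjusted p of 0.05. Hmgcs1 and Dhcr7 are filled in all 6 groups, while Idi1 and Insig1 are filled in none.

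**Figure D2:**
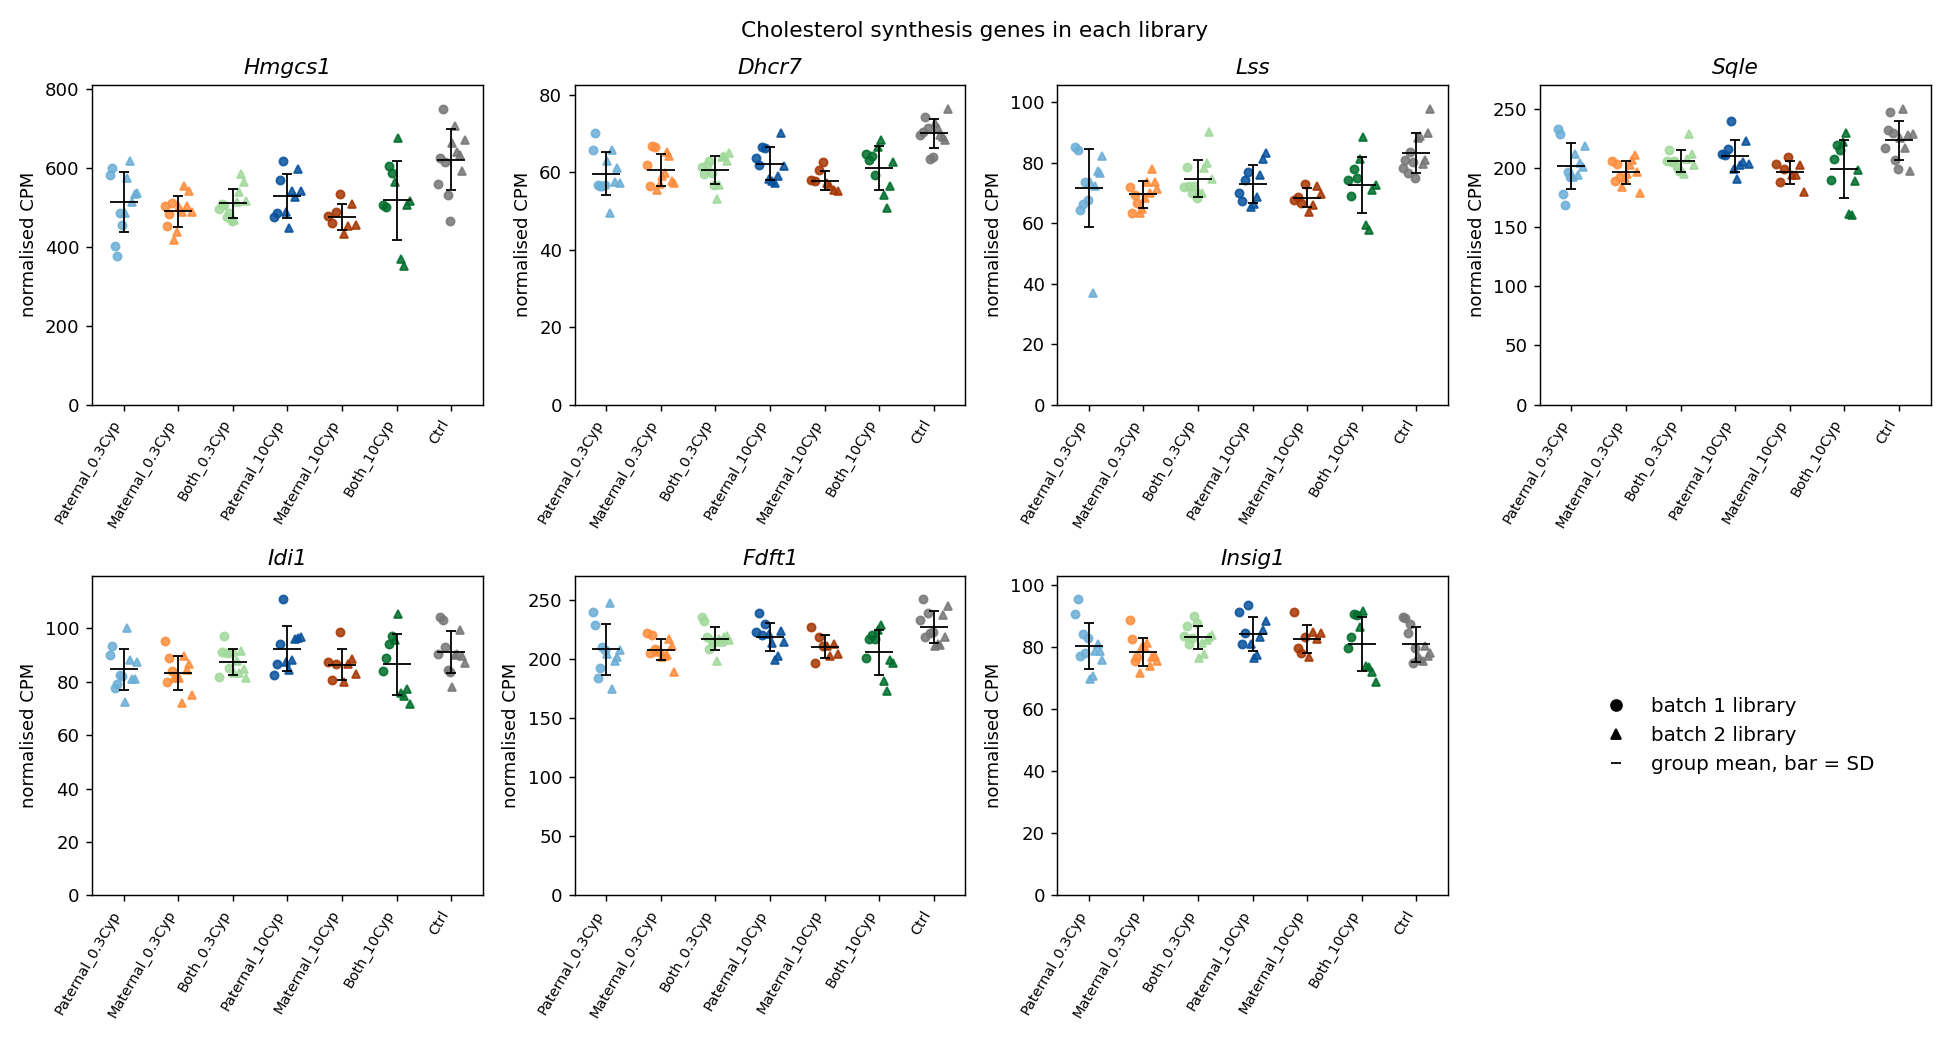
Normalised level of each of the 7 genes in every library (CPM, vertical axis from 0), with the 6 exposed groups on the left and Ctrl on the right; circles are batch 1 embryos, triangles batch 2 embryos, and bars mark the group mean with its SD. For Hmgcs1, Dhcr7 and Lss the Ctrl mean is the highest of the 7 groups, while for Insig1 it is the fifth from the top.

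Hmgcs1 (ENSMUSG00000093930, chr13:119690379-119708260, plus strand on GRCm38) encodes the cytosolic HMG-CoA synthase, an early step of the mevalonate pathway. Its lowest, median and highest levels were 378, 524 and 619 CPM in Paternal_0.3Cyp, 416, 494 and 553 CPM in Maternal_0.3Cyp and 466.3, 507 and 583 CPM in Both_0.3Cyp. At dose 10 they were 447, 533 and 619 CPM in Paternal_10Cyp, 434, 469 and 533 CPM in Maternal_10Cyp and 350.4, 512 and 677 CPM in Both_10Cyp, against 465, 629 and 750.2 CPM in Ctrl. Of the 64 exposed embryos, 63 lay below the Ctrl mean, but only 13 lay below the lowest Ctrl embryo, so the ranges overlapped in every group. Among the exposed groups the ranges of Both_10Cyp and Paternal_0.3Cyp were the widest. Group means ran from 476 ± 32.7 CPM in Maternal_10Cyp (SD, n = 8) to 529 ± 55.3 CPM in Paternal_10Cyp (SD, n = 10) among the exposed groups, against 621 ± 77.3 CPM in Ctrl (SD, n = 12). The step from Paternal_10Cyp to Ctrl exceeded the SD of Paternal_10Cyp, whereas neighbouring exposed groups differed by less than the smaller of their SDs. The log2 fold changes (± SE) were -0.27 ± 0.071 in Paternal_0.3Cyp, -0.34 ± 0.071 in Maternal_0.3Cyp, -0.28 ± 0.071 in Both_0.3Cyp, -0.22 ± 0.075 in Paternal_10Cyp, -0.38 ± 0.080 in Maternal_10Cyp and -0.26 ± 0.075 in Both_10Cyp. In the same order the edgeR adjusted p-values were 0.00583, 0.00330, 0.00716, 0.0311, 0.000314 and 0.0359, so Hmgcs1 fell in all 6 groups. The Paternal_10Cyp call was lost without any 1 of its replicates 1, 2, 5 and 6 or Ctrl replicates 3, 7, 8 and 12 (8 of 22 runs that left out a library, edgeR adjusted p up to 0.0921). The Both_10Cyp call was lost without any 1 of its replicates 1, 2, 7 and 8 or Ctrl replicates 3, 7, 8, 9 and 12 (9 of 22 runs, edgeR adjusted p up to 0.152). Ctrl replicate 3, which had the highest Hmgcs1 level of all libraries (750.2 CPM), was among those high in diencephalon markers.

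Idi1 (ENSMUSG00000058258, chr13:8885501-8892451, plus strand), whose enzyme isomerises isopentenyl diphosphate, was not called in any group. Levels spanned 72.2 to 100.3 CPM in Paternal_0.3Cyp, 71.9 to 95.3 in Maternal_0.3Cyp and 81.5 to 97.1 in Both_0.3Cyp. They spanned 82.5 to 111 CPM in Paternal_10Cyp, 79.9 to 98.7 in Maternal_10Cyp and 71.5 to 105 in Both_10Cyp, against 78.0 to 104 in Ctrl. All groups overlapped, and Paternal_10Cyp (92.3 ± 8.40 CPM, SD, n = 10) lay next to Ctrl (91.1 ± 7.88 CPM, SD, n = 12) at the top of the order. The largest difference was in Maternal_0.3Cyp, where the log2 fold change of -0.11 had a 95% interval of -0.21 to -0.015 and an edgeR adjusted p of 0.0852. The smallest was in Paternal_10Cyp, at 0.038 with an interval of -0.063 to 0.14. A p that misses the threshold does not show that Idi1 was equal in these groups.

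Fdft1 (ENSMUSG00000021273, chr14:63145150-63179578, minus strand) encodes squalene synthase, the first enzyme committed to sterols. Its lowest, median and highest levels were 174, 205 and 247 CPM in Paternal_0.3Cyp, 188, 207 and 222 CPM in Maternal_0.3Cyp and 198, 216 and 235 CPM in Both_0.3Cyp. They were 199, 221 and 239 CPM in Paternal_10Cyp, 197, 211 and 226 CPM in Maternal_10Cyp and 172, 208 and 229 CPM in Both_10Cyp, against 211, 222 and 250.1 CPM in Ctrl. Ranges overlapped in every group, with 31 of 64 exposed embryos below the lowest Ctrl embryo. Fdft1 fell in Paternal_0.3Cyp (log2 -0.12 ± 0.039, edgeR adjusted p = 0.0161), Maternal_0.3Cyp (-0.11 ± 0.039, 0.0305), Maternal_10Cyp (-0.10 ± 0.043, 0.0446) and Both_10Cyp (-0.14 ± 0.040, 0.0434). It was not called in Both_0.3Cyp (edgeR adjusted p = 0.235, 95% interval -0.14 to 0.014) or Paternal_10Cyp (0.492, -0.12 to 0.040). The Maternal_0.3Cyp call was lost without any 1 of its replicates 2, 5 and 12 or Ctrl replicates 10 and 12 (edgeR adjusted p up to 0.0691). The Maternal_10Cyp call was kept only without its replicate 1 or 3 or Ctrl replicate 5 or 6, and was lost in the other 16 of 20 runs (edgeR adjusted p up to 0.104). The Both_10Cyp call was lost in 15 of 22 runs, those without its replicates 1, 2, 7, 8 and 9 or any Ctrl replicate but 5 and 6 (edgeR adjusted p up to 0.179). Fdft1 overlaps Ctsb on the opposite strand, and since no strand setting is given, reads from the overlap cannot be told apart.

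Sqle (ENSMUSG00000022351, chr15:59315077-59331192, plus strand) encodes squalene epoxidase, a rate-limiting oxygen-dependent step. Its lowest, median and highest levels were 168, 199 and 233 CPM in Paternal_0.3Cyp, 179, 196 and 211 CPM in Maternal_0.3Cyp and 195, 205 and 228 CPM in Both_0.3Cyp. At dose 10 they were 190.5, 208 and 239 CPM in Paternal_10Cyp, 179.6, 197 and 209 CPM in Maternal_10Cyp and 160.1, 203 and 229 CPM in Both_10Cyp, against 197, 227 and 249.9 CPM in Ctrl. All groups overlapped with Ctrl, although 59 of 64 exposed embryos lay below the Ctrl mean. Sqle fell in Paternal_0.3Cyp (log2 -0.14 ± 0.045, edgeR adjusted p = 0.0149), Maternal_0.3Cyp (-0.18 ± 0.046, 0.00631), Maternal_10Cyp (-0.18 ± 0.051, 0.00320) and Both_10Cyp (-0.16 ± 0.048, 0.0406). In Both_0.3Cyp it missed the threshold at -0.12 (edgeR adjusted p = 0.0528, unadjusted 95% interval -0.21 to -0.028), and in Paternal_10Cyp at -0.079 (0.221, -0.17 to 0.015). It passed in Both_0.3Cyp without replicate 10 of that group or Ctrl replicate 5, 6 or 11 (lowest edgeR adjusted p = 0.0275). The Paternal_0.3Cyp call was lost without replicate 4 (edgeR adjusted p = 0.0505). The Both_10Cyp call was lost without any 1 of its replicates 1, 2, 7, 8 and 9 or Ctrl replicates 3, 7, 8, 9, 10 and 12 (11 of 22 runs, edgeR adjusted p up to 0.168).

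Lss (ENSMUSG00000033105, chr10:76531588-76557138, plus strand) encodes lanosterol synthase, which closes the sterol rings. Its lowest, median and highest levels were 37.0, 73.6 and 85.2 CPM in Paternal_0.3Cyp, 63.2, 69.6 and 77.8 CPM in Maternal_0.3Cyp and 68.4, 72.3 and 90.0 CPM in Both_0.3Cyp. At dose 10 they were 65.5, 72.0 and 83.1 CPM in Paternal_10Cyp, 63.7, 68.1 and 73.1 CPM in Maternal_10Cyp and 57.9, 73.4 and 88.3 CPM in Both_10Cyp, against 74.9, 80.8 and 97.9 CPM in Ctrl. All 8 Maternal_10Cyp embryos lay below the lowest Ctrl embryo, in a group where 20.4% of all genes were called lower, and the other 5 groups overlapped with Ctrl. A call is not the same as a lack of overlap, and the share of all genes without overlap was not counted. Lss fell in Paternal_0.3Cyp (log2 -0.21 ± 0.066, edgeR adjusted p = 0.0138), Maternal_0.3Cyp (-0.26 ± 0.066, 0.00567), Paternal_10Cyp (-0.19 ± 0.069, 0.0395) and Maternal_10Cyp (-0.28 ± 0.074, 0.00213). It missed the threshold in Both_0.3Cyp (edgeR adjusted p = 0.0734, unadjusted 95% interval -0.28 to -0.027) and Both_10Cyp (0.0686, -0.33 to -0.064). It passed in Both_0.3Cyp without its replicate 11 and in Both_10Cyp without its replicate 3 or 6 or Ctrl replicate 6 (lowest edgeR adjusted p = 0.0412 in both). The Paternal_10Cyp call was lost without any 1 of its replicates 1, 2, 5, 6, 7 and 8 or Ctrl replicates 3, 4, 7, 8, 9, 11 and 12 (13 of 22 runs, edgeR adjusted p up to 0.103). In Paternal_0.3Cyp, 1 embryo (replicate 8) had 37.0 CPM, the lowest of all 76, and without it the log2 fold change was -0.14 with an edgeR adjusted p of 0.0446.

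Dhcr7 (ENSMUSG00000058454, chr7:143823145-143848410, plus strand) encodes 7-dehydrocholesterol reductase, the final step to cholesterol, whose loss causes Smith-Lemli-Opitz syndrome in humans. Its lowest, median and highest levels were 49.6, 57.5 and 70.2 CPM in Paternal_0.3Cyp, 55.4, 59.4 and 67.0 CPM in Maternal_0.3Cyp and 53.1, 61.7 and 65.0 CPM in Both_0.3Cyp. At dose 10 they were 57.3, 61.8 and 70.2 CPM in Paternal_10Cyp, 55.3, 57.4 and 62.6 CPM in Maternal_10Cyp and 50.8, 63.0 and 68.4 CPM in Both_10Cyp, against 63.4, 70.1 and 76.5 CPM in Ctrl. Every Maternal_10Cyp embryo, and 46 of the 64 exposed embryos in all, lay below the lowest Ctrl embryo, and the other 5 groups overlapped with Ctrl. In Maternal_10Cyp 20.4% of all genes were called lower, and the share of all genes without overlap was not counted. The log2 fold changes (± SE) were -0.23 ± 0.043 in Paternal_0.3Cyp, -0.20 ± 0.043 in Maternal_0.3Cyp, -0.21 ± 0.043 in Both_0.3Cyp, -0.17 ± 0.045 in Paternal_10Cyp, -0.28 ± 0.048 in Maternal_10Cyp and -0.20 ± 0.045 in Both_10Cyp. In that order the edgeR adjusted p-values were 0.00121, 0.00330, 0.00505, 0.0101, 8.51e-05 and 0.0153, and Dhcr7 fell in all 6 groups. Among the Maternal_10Cyp embryos the mean was 57.9 ± 2.57 CPM (SD, n = 8), 17.4% below the Ctrl level in the fit, against 70.1 ± 3.78 CPM in Ctrl (SD, n = 12). Leaving out 1 library ended no Dhcr7 call except that of Both_10Cyp, without its replicate 7 or 8 (edgeR adjusted p up to 0.0918).

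Insig1 (ENSMUSG00000045294, chr5:28071363-28078662, plus strand), the sterol-sensing partner of Scap, was not called in any group. Levels spanned 69.6 to 95.3 CPM in Paternal_0.3Cyp, 71.6 to 88.7 in Maternal_0.3Cyp and 76.3 to 89.8 in Both_0.3Cyp. They spanned 76.6 to 93.6 CPM in Paternal_10Cyp, 76.8 to 91.1 in Maternal_10Cyp and 68.6 to 91.5 in Both_10Cyp, against 74.9 to 89.7 in Ctrl. All ranges overlapped, and 28 of 64 exposed embryos lay below the Ctrl mean. The log2 fold change was highest in Paternal_10Cyp, at 0.076 (95% interval -0.0023 to 0.15, edgeR adjusted p = 0.154), and lowest in Maternal_0.3Cyp, at -0.026 (-0.10 to 0.049, 0.645). In Maternal_10Cyp the change was 0.035 (-0.048 to 0.12). These intervals bound the size of a change and do not show that Insig1 was equal in the groups.

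These calls depended on how libraries and hidden variation were handled. With 2 surrogate variables, hidden factors estimated by sva from all genes, 1 of the 42 tests of a gene in a group was called (Dhcr7 in Maternal_10Cyp), against 24 without them. With a covariate for embryonic over adult globin RNA, the counts were 1, 2, 0, 1, 3 and 2 of 7 in the order Paternal_0.3Cyp, Maternal_0.3Cyp, Both_0.3Cyp, Paternal_10Cyp, Maternal_10Cyp and Both_10Cyp. That log2 ratio had a median of -11.0 in Paternal_0.3Cyp, -10.7 in Maternal_0.3Cyp, -10.9 in Both_0.3Cyp, -11.4 in Paternal_10Cyp, -10.3 in Maternal_10Cyp and -11.4 in Both_10Cyp, against -12.8 in Ctrl. Over the 76 libraries the ratio had a Pearson r of -0.712 and a Spearman rho of -0.594 with the mean of the 7 scaled genes, as a description of values that share a library, and r was -0.732 without the 2 libraries farthest from the median. Without the 4 libraries high in diencephalon markers, 18 of the 24 calls of a gene in a group remained. The shares of all genes called in these settings are not given here. From the values given here, a loss in these genes alone cannot be told from a loss over all genes. No called value changed sign in any setting.

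Some libraries high in embryonic globin were among the lowest for these genes. In Both_10Cyp, replicates 7 and 8 had 369.6 and 350.4 CPM of Hmgcs1 and 54.1 and 50.8 CPM of Dhcr7, the lowest 2 of their group. Without the 5 high-globin libraries 0 of 7 genes were called in Both_10Cyp by edgeR, against 4 with them. Hmgcs1 was then at -0.15 (adjusted p = 0.44, edgeR) and Dhcr7 at -0.15 (0.271). In Paternal_0.3Cyp, replicates 3 and 4 had 401 and 378 CPM of Hmgcs1, also the lowest 2 of their group. Without the 5 libraries, 3 of 7 were called there by edgeR, and Sqle and Fdft1 were lost. The part of these libraries' globin RNA in the result was not tested, and the share of all genes called without these libraries is not given here.

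No difference between the doses was called by edgeR for the 7 genes, while limma called 1 gene between the paternal groups. In edgeR, 0 of 7 were called between Paternal_10Cyp and Paternal_0.3Cyp (0.0628% of all genes), between Maternal_10Cyp and Maternal_0.3Cyp (0%) and between Both_10Cyp and Both_0.3Cyp (0.00697%). The counts at an unadjusted p under 0.05 were 3 of 7 (Idi1, Fdft1 and Insig1), 0 and 0, against 1250, 1291 and 414 of all 14339 genes. DESeq2 called 0 in each and limma called 1, Idi1 between the paternal groups. Idi1 averaged 92.3 ± 8.40 CPM in Paternal_10Cyp and 84.6 ± 7.64 CPM in Paternal_0.3Cyp (SD, n = 10 and 12), a log2 difference of 0.14 with a 95% interval of 0.038 to 0.24. For Hmgcs1 the dose 10 minus dose 0.3 differences were 0.050 (-0.096 to 0.20) for fathers, -0.038 (-0.19 to 0.12) for mothers and 0.019 (-0.13 to 0.16) for both parents. These intervals do not show that the 2 doses acted alike.

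Between maternal and paternal exposure no difference was called for the 7 genes at either dose. Between Maternal_0.3Cyp and Paternal_0.3Cyp edgeR called 0 of 7 (0.00697% of all genes), with 0 at an unadjusted p under 0.05, and between Maternal_10Cyp and Paternal_10Cyp it called 0 of 7 (0%), with 1, Dhcr7. At that unadjusted p were 582 and 718 of all 14339 genes in these comparisons. DESeq2 and limma called 0 of 7 in both. Dhcr7 averaged 57.9 ± 2.57 CPM in Maternal_10Cyp and 62.3 ± 4.35 CPM in Paternal_10Cyp (SD, n = 8 and 10), a log2 difference of -0.11 (95% interval -0.21 to -0.012). For Hmgcs1 the difference at dose 10 was -0.16 (-0.32 to 0.0045, edgeR adjusted p = 0.819). The other estimates at dose 10 were -0.090 for Lss, -0.11 for Sqle, -0.11 for Idi1, -0.065 for Fdft1 and -0.041 for Insig1. These values do not show that exposure of the mother and of the father acted alike.

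At dose 10, exposure of both parents lowered 3 of the genes by less than the sum of the single-parent changes, as called by edgeR. For these 3 genes the shortfall at dose 0.3 was of like size but was not called by edgeR. The term Both minus Maternal minus Paternal plus Ctrl is 0 if the parental effects add on the log2 scale and above 0 if both parents together lower a gene by less than that. At dose 10 it was 0.33 ± 0.11 for Hmgcs1, 0.24 ± 0.068 for Dhcr7 and 0.27 ± 0.10 for Lss, with edgeR adjusted p-values of 0.0234, 0.00745 and 0.0402. These 3 of 7 were called higher, against 14% of all genes. At dose 0.3 the term was 0.33 for Hmgcs1, 0.22 for Dhcr7, 0.32 for Lss and 0.21 for Sqle. In that order the unadjusted p in edgeR was 0.0019, 0.00044, 0.00096 and 0.0020. At dose 10 it was 0.0042, 0.00054 and 0.0098 for Hmgcs1, Dhcr7 and Lss. For the dose 0.3 term edgeR called 0 of 7 (0% of all genes). At an unadjusted p under 0.05 in edgeR were 6 of 7, and 3659 of all 14339 genes. DESeq2 called 5 of 7 and limma called 6, and the shares of all genes that these tools called are not given here. Ctrl enters this term with a plus sign and each single-parent comparison with a minus sign, so the term shares the Ctrl libraries with them. For the dose 10 term edgeR called 0 of 7 within either batch alone and 0 of 7 with 2 surrogate variables.

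Sex made no detectable difference to the 7 genes. Between male and female embryos edgeR called 0 of 7 (0.0907% of all genes), with 0 at an unadjusted p under 0.05 (586 of all 14339 genes). DESeq2 and limma also called 0. The male minus female difference of Hmgcs1 was 0.068 (95% interval -0.012 to 0.15). The exposure changes were not called different between the sexes for any of the 7 genes (0% of all genes).

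The same genes were followed within each labelled batch, from 1 fit in which every combination of group and batch had its own mean. In batch 2, Hmgcs1 was called in 5 groups, Dhcr7 in 6, Lss in 4, Sqle in 3 and Fdft1 in 1. By group the batch 2 counts were 2 of 7 in Paternal_0.3Cyp (5.03% of all genes called lower), 4 in Maternal_0.3Cyp (9.55%), 2 in Both_0.3Cyp (4.39%), 2 in Paternal_10Cyp (8.66%), 4 in Maternal_10Cyp (15.2%) and 5 in Both_10Cyp (7.52%). In batch 1 edgeR called 0 of 7 in each of the 6 groups, where 0%, 0%, 0%, 0.00697%, 0.0418% and 0% of all genes were called lower in the same order. At an unadjusted p under 0.05 the batch 1 counts were 5, 3, 2, 0, 3 and 0 of 7. Of all 14339 genes, 2822, 1207, 1944, 1843, 3125 and 410 were at that p in the same order. Hmgcs1 in batch 1 was at -0.29 in Paternal_0.3Cyp, -0.28 in Maternal_0.3Cyp, -0.27 in Both_0.3Cyp, -0.12 in Paternal_10Cyp, -0.27 in Maternal_10Cyp and -0.11 in Both_10Cyp. Its batch 2 values were -0.25, -0.39, -0.29, -0.30, -0.48 and -0.39 in that order. Hmgcs1 was thus below Ctrl in both batches of all 6 groups. A test of batch by exposure called 0 of 7 genes in edgeR, DESeq2 and limma (0% of all genes in edgeR), with 0 at an unadjusted p under 0.05. In edgeR 950 of all 14339 genes were at that p. Batch 1 held 34 libraries and batch 2 held 42.

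**Figure D3:**
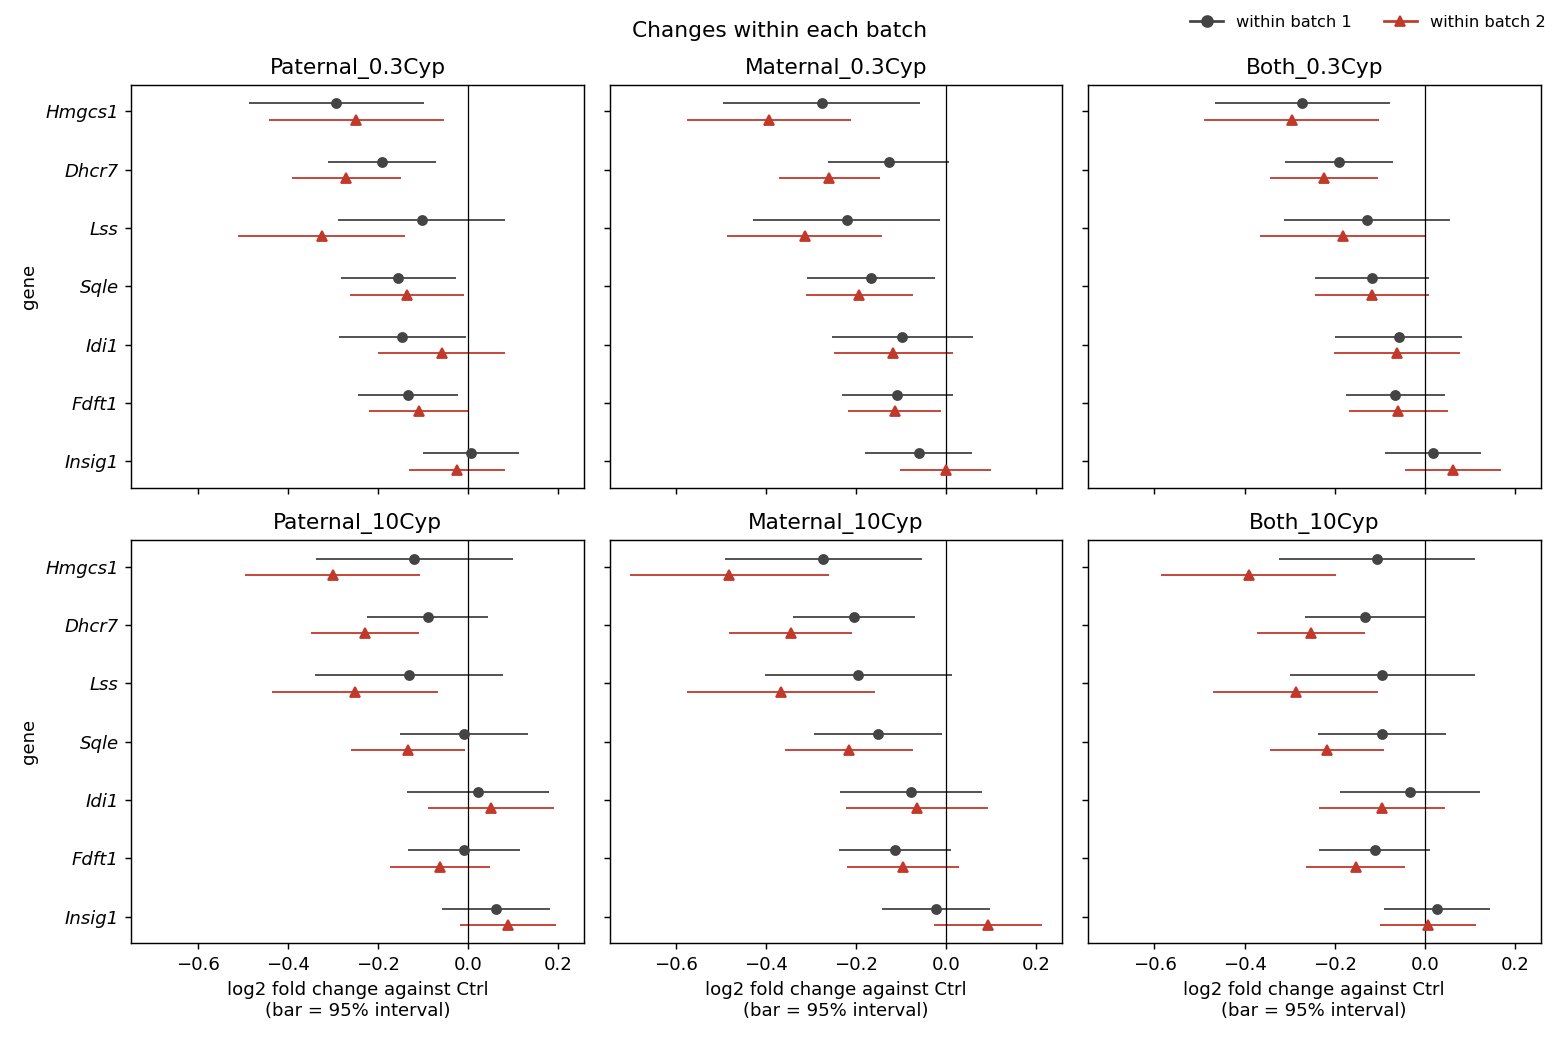
Log2 fold change against Ctrl of the 7 genes within batch 1 (grey circles) and batch 2 (red triangles), in a panel for each exposed group; bars are 95% intervals. Hmgcs1 lies left of 0 in both batches of every group, and the batch 1 intervals of Paternal_10Cyp and Both_10Cyp include 0.

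Ordered by mean level, Ctrl stood first of the 7 groups for Hmgcs1, Dhcr7, Lss, Sqle and Fdft1. For Dhcr7 and Lss, as for Hmgcs1, the step from Ctrl to the next group exceeded the smaller of the 2 SDs. For Sqle, Fdft1, Idi1 and Insig1 no neighbouring groups differed by more than that, and no neighbouring exposed groups did for any of the 7 genes.

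The 7 genes also varied together between embryos, as values that share a library and its depth. After the means of group, batch and sex were taken out, the 21 pairs had Pearson r between 0.135 and 0.868 (median 0.474) over 76 libraries and Spearman rho between 0.254 and 0.829. The strongest pair was Hmgcs1 and Sqle, with r = 0.868 and rho = 0.829, a permutation p of 1e-05 (the smallest 100000 permutations can give), an adjusted p of 2.62e-05 over the 21 pairs, and r = 0.832 without the 2 libraries farthest from the median. Dhcr7 and Lss followed each other less closely, at r = 0.673. The weakest pairs were Lss with Fdft1 (r = 0.135, permutation p = 0.237) and Lss with Idi1 (r = 0.139, permutation p = 0.23). For Lss and Idi1, rho was 0.358, and without the 2 farthest libraries r was 0.421. Replicate 8 of Paternal_0.3Cyp had the lowest Lss and Dhcr7 of all 76 libraries (37.0 and 49.6 CPM) and the highest Idi1 and Fdft1 of its group (100.3 and 247 CPM). Over all 102796291 pairs of tested genes, treated the same way, the median r was -0.0039, but 7.2% reached the median of the 21 pairs and 31.8% reached the lowest of them, so such values are not particular to these genes. For the 21 pairs the median r was 0.548 within batch 1 and 0.46 within batch 2.

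**Figure D4:**
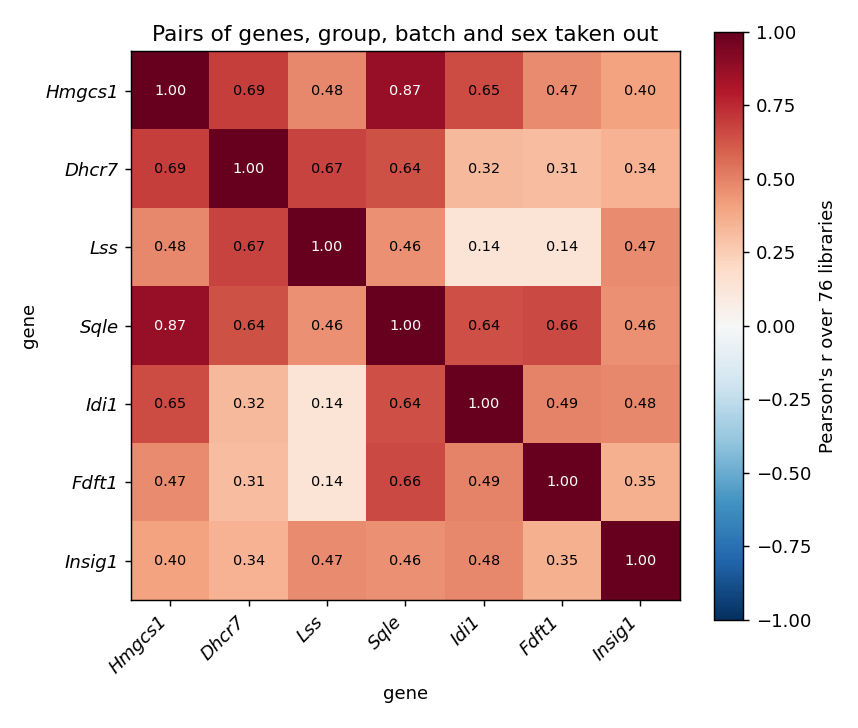
Pearson r between each pair of the 7 genes over 76 libraries after the means of group, batch and sex were removed; darker red is a higher r. Outside the diagonal, Hmgcs1 and Sqle form the darkest square (0.868), and Lss with Fdft1 (0.135) or Idi1 (0.139) the palest.

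Each gene was scaled and the 7 were averaged to find the genes with the most similar pattern over the 76 libraries. By Pearson r the nearest were Cyp51 (0.843), Mvd (0.838), Scd1 (0.83), Prkar1b (0.82), Osbpl1a (0.819), Ptk2b (0.816), Aacs (0.815), Gucy1b1 (0.813), Gabra5 (0.811) and Wasf1 (0.81). Cyp51 and Mvd encode enzymes of the same pathway, Scd1 a fatty acid desaturase and Aacs an enzyme that activates acetoacetate for lipid synthesis. The most opposite genes were Mest (-0.843) and Spdl1 (-0.805). With group, batch and sex taken out the nearest was Gucy1b1 (0.839) and the most opposite Tead2 (-0.828).

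The other 13 listed enzymes of the cholesterol pathway moved in the same direction where they were called. In edgeR 5 fell in Paternal_0.3Cyp, 7 in Maternal_0.3Cyp, 5 in Both_0.3Cyp, 0 in Paternal_10Cyp, 6 in Maternal_10Cyp and 0 in Both_10Cyp, and 0 rose. Of all genes, 12.2%, 12.8%, 11.8%, 10.8%, 20.4% and 1.58% were called lower in that order. At an unadjusted p under 0.05, 1 was lower in Paternal_10Cyp and 5 in Both_10Cyp, and 0 were higher in any of the 6 groups. In either direction, 5305 of all 14339 genes were at that p in Paternal_10Cyp and 3949 in Both_10Cyp. DESeq2 called 1 lower in each of those groups, limma called 3 in Paternal_10Cyp and 0 in Both_10Cyp, and both tools called 0 higher in every group. The median log2 fold changes were -0.12, -0.14, -0.11, -0.074, -0.13 and -0.11 in the order Paternal_0.3Cyp, Maternal_0.3Cyp, Both_0.3Cyp, Paternal_10Cyp, Maternal_10Cyp and Both_10Cyp. Cyp51, which demethylates lanosterol, Mvd, the mevalonate diphosphate decarboxylase, Sc5d, a desaturase near the end of the pathway, and Hsd17b7, which removes a keto group from sterol intermediates, each fell in the same 4 groups, those of dose 0.3 and Maternal_10Cyp. Their log2 fold changes in Maternal_10Cyp were -0.15, -0.23, -0.23 and -0.27. Mvd averaged 44.9 ± 2.46 CPM in Maternal_10Cyp and 52.9 ± 4.13 CPM in Ctrl (SD, n = 8 and 12).

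**Figure D5:**
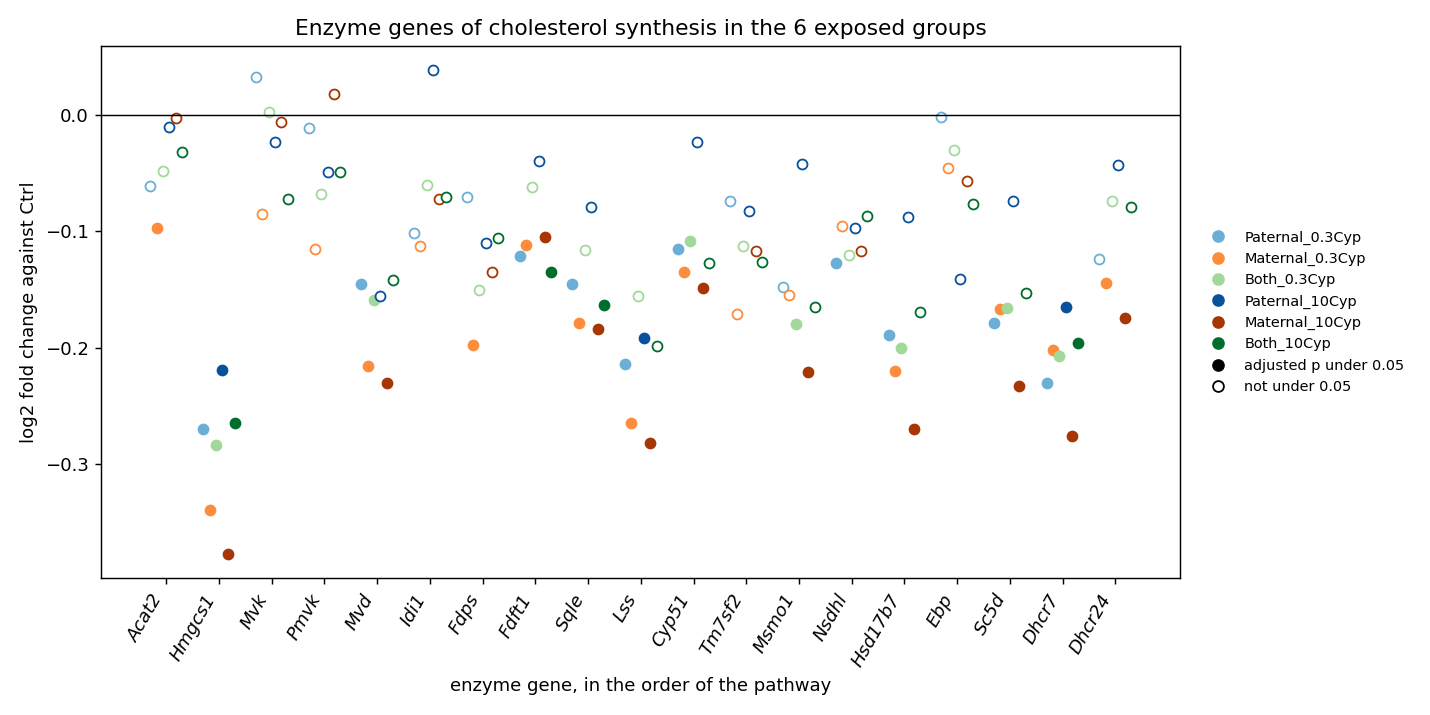
Log2 fold change against Ctrl of 19 cholesterol synthesis enzymes in pathway order, for each exposed group (colours), with filled points for changes that passed an adjusted p of 0.05 in edgeR. Hmgcs1 and Dhcr7 are called in all 6 groups.

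Of the 6 genes besides Insig1 that regulate SREBPs, 1 rose in each group and 1 or 2 fell. Of all genes, 15.4%, 10.9%, 10.5%, 10.7%, 20.4% and 2.34% were called higher in the order Paternal_0.3Cyp, Maternal_0.3Cyp, Both_0.3Cyp, Paternal_10Cyp, Maternal_10Cyp and Both_10Cyp, so 1 of 6 was near the background in every group but Both_10Cyp. Called lower were 12.2%, 12.8%, 11.8%, 10.8%, 20.4% and 1.58% of all genes in that order. The 1 of 6 that fell in Both_0.3Cyp was thus near the background too. The one that rose was Mbtps1, which encodes the first protease that cleaves SREBPs, at 0.098 in Paternal_0.3Cyp, 0.13 in Maternal_0.3Cyp, 0.14 in Both_0.3Cyp, 0.12 in Paternal_10Cyp, 0.15 in Maternal_10Cyp and 0.14 in Both_10Cyp. Scap, the SREBP escort, fell in 4 groups (-0.092 in Paternal_0.3Cyp, -0.12 in Maternal_0.3Cyp, -0.099 in Paternal_10Cyp and -0.11 in Both_10Cyp). Mbtps2, the second protease, fell in Paternal_0.3Cyp (-0.18), Both_0.3Cyp (-0.17) and Maternal_10Cyp (-0.19). Srebf2, which encodes SREBP-2, fell in Maternal_0.3Cyp (-0.14), Paternal_10Cyp (-0.15) and Maternal_10Cyp (-0.16).

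Fatty acid synthesis genes, many of them targets of SREBP-1, were also lower where they were called. Of 11, the counts called lower were 8 in Paternal_0.3Cyp, 8 in Maternal_0.3Cyp, 8 in Both_0.3Cyp, 6 in Paternal_10Cyp, 9 in Maternal_10Cyp and 3 in Both_10Cyp, with 0 higher. The shares of all genes called lower in these groups were 12.2%, 12.8%, 11.8%, 10.8%, 20.4% and 1.58%. Their median log2 fold changes were -0.16, -0.18, -0.13, -0.11, -0.22 and -0.16. Fasn, the fatty acid synthase, averaged 456 ± 53.5 CPM in Maternal_10Cyp and 752 ± 177 CPM in Ctrl (SD, n = 8 and 12), a log2 fold change of -0.69. The Maternal_10Cyp changes of Scd1, Elovl6 and Fads2, which desaturate or lengthen fatty acids, were -0.60, -0.24 and -0.22.

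Among 8 genes of cholesterol uptake and transport inside the cell, 2, 3, 2, 1, 2 and 0 fell in edgeR and 1, 1, 1, 0, 1 and 0 rose in the order Paternal_0.3Cyp, Maternal_0.3Cyp, Both_0.3Cyp, Paternal_10Cyp, Maternal_10Cyp and Both_10Cyp. With 12.2%, 12.8%, 11.8%, 10.8%, 20.4% and 1.58% of all genes called lower, the 1 of 8 in Paternal_10Cyp and the 2 of 8 in Maternal_10Cyp were near the background, as was 1 of 8 higher, against 15.4%, 10.9%, 10.5% and 20.4% of all genes where it was called. Vldlr, a lipoprotein receptor that also binds reelin, fell to 55.8 ± 6.77 CPM in Maternal_10Cyp, against 74.7 ± 10.7 CPM in Ctrl (SD, n = 8 and 12). Gramd1b, which moves cholesterol from the plasma membrane to the endoplasmic reticulum, changed by -0.39 in Maternal_10Cyp. Npc2, the lysosomal cholesterol carrier, was the gene that rose, by 0.27 there. Scarb1, a receptor for high-density lipoprotein, fell in Maternal_0.3Cyp (-0.19) and was at -0.11 in Maternal_10Cyp, where it was not called. Of 9 genes of cholesterol efflux and storage, 3, 4, 4, 5, 6 and 0 fell and 1, 0, 1, 0, 1 and 0 rose in the same order. Where 1 of 9 rose, this was near or below the share of all genes called higher (15.4%, 10.5% and 20.4%). In Both_10Cyp, where edgeR called 0 in both lists, 3 uptake and 2 efflux genes were lower and 1 of each list higher at an unadjusted p under 0.05. In either direction, 3949 of all 14339 genes were at that p there. DESeq2 and limma each called 1 uptake and 0 efflux genes lower in Both_10Cyp. Abca1, a cholesterol exporter induced by liver X receptors, was at -0.33 in Paternal_10Cyp and -0.53 in Maternal_10Cyp, where it was called. The exporters Abcg4 and Abcg1 were at -0.43 and -0.19 in Maternal_10Cyp. Nr1h2, which encodes the liver X receptor beta, rose by 0.26 there.

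Markers of some cell types also moved with the exposed groups. Of 16 marker lists, those described are the ones whose means followed the mean of the 7 scaled genes most closely. For the lists left out, Pearson r with that mean lay between -0.273 (microglia) and 0.326 (upper-layer neurons). The counts of markers called are to be read against 15.4%, 10.9%, 10.5%, 10.7%, 20.4% and 2.34% of all genes called higher and 12.2%, 12.8%, 11.8%, 10.8%, 20.4% and 1.58% called lower. Of 7 intermediate progenitor markers, 7, 7, 5, 3, 7 and 2 rose in the order Paternal_0.3Cyp, Maternal_0.3Cyp, Both_0.3Cyp, Paternal_10Cyp, Maternal_10Cyp and Both_10Cyp. Their summed level spanned 584 to 744 CPM in Maternal_10Cyp and 260.0 to 667 CPM in Ctrl. Of 10 markers of dividing cells, 8, 7, 8, 6, 8 and 2 rose, with sums of 833 to 1128 CPM in Maternal_10Cyp and 552 to 1094 CPM in Ctrl. Of 6 oligodendrocyte precursor markers, 3, 5, 5, 3, 6 and 1 fell, with sums of 90.0 to 115 CPM in Maternal_10Cyp and 95.1 to 223 CPM in Ctrl. Of 7 early astrocyte markers, 3, 3, 4, 2, 5 and 0 fell, with sums of 237 to 316 CPM in Maternal_10Cyp and 255 to 457 CPM in Ctrl. Of 10 radial glia markers, 5, 4, 4, 2, 6 and 0 rose and 2, 1, 2, 1, 2 and 1 fell, with sums of 1737 to 2085 CPM in Maternal_10Cyp and 1553 to 1871 CPM in Ctrl. The radial glia markers that fell, 1 or 2 of 10, were near the background share except in Both_10Cyp, where it was 1.58%. No marker of these 5 lists was at 0 in any library. Of 9 erythroid markers tested, 7, 2, 2, 3, 0 and 1 rose, with sums of 1539 to 3753 CPM in Paternal_0.3Cyp and 1365 to 1973 CPM in Ctrl. The 0 of 9 in Maternal_10Cyp was below the background share of 20.4%. At 0 in at least 1 library were 1 erythroid marker in Paternal_10Cyp, 2 in Both_10Cyp and 2 in Ctrl. Over the 76 libraries the mean of the 7 scaled cholesterol genes had a Pearson r of -0.767 (rho -0.680) with the mean of the intermediate progenitor markers and -0.759 (rho -0.671) with that of the markers of dividing cells. It was -0.647 (rho -0.590) for radial glia, -0.526 (rho -0.479) for erythroid cells, 0.666 (rho 0.575) for early astrocytes and 0.631 (rho 0.581) for oligodendrocyte precursors. With group, batch and sex taken out, these r were -0.757, -0.752, -0.609, -0.479, 0.707 and 0.638 in the same order. Without the 2 libraries farthest from the median, the r as measured were -0.750, -0.742, -0.639, -0.503, 0.702 and 0.680. The cholesterol genes were thus lower in embryos with higher progenitor and dividing cell markers, within groups as well as across them. These values share a library and its depth, and the part of these cell types in the change of the cholesterol genes was not tested.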

How the data were processed

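RNA of the E16 dorsal forebrain was measured in 76 embryos of 7 groups. The authors' deposited table holds expected counts per gene, estimated with Salmon 1.10.1 after trimming with Trim Galore 0.5.0 for mm10, per the submitters' processing notes. It lists 14823 genes, each with at least 10 counts in at least 3 libraries, and 14810 of their identifiers matched a mouse symbol. Groups, batch and sex come from the labels. Expected counts were rounded to whole numbers and tested with edgeR 4.0.16 in R 4.3.3 (TMM scaling, filterByExpr by group, which removed 484 genes, and a robust quasi-likelihood F test with group, batch and sex over all 76 libraries). P-values were adjusted by Benjamini-Hochberg over 14339 genes at a threshold of 0.05. Normalised levels are CPM, and 95% intervals are the estimate ± 1.96 SE. The fit was tested on simulated counts. For log2 levels in correlations a prior count of 2, scaled to library size, was added to the counts before CPM were taken.

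Alternatives were DESeq2 1.42.0 and its size factors, limma 3.58.1 with voom weights, no filter, a fit of the compared groups only, no batch term, a replicate block, each batch alone, 2 surrogate variables (hidden factors estimated by sva 3.50.0 from all genes), the embryonic to adult globin ratio as a covariate, leaving out libraries over 3 median absolute deviations in embryonic globin or diencephalon markers, and leaving out each library in turn. Thinning to the smallest total was added after the data were seen. The 7 genes, the pathway and marker lists and the rule for named genes (the 7 genes in each comparison, up to 4 genes per pathway list by the joint test, and the 10 most similar genes) were chosen with earlier results of these data known. Another 2 genes of the pathway lists are not reported here. Among 2850 pairs of libraries 0 were identical, and no pair agreed within counting noise.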

Additional observations from a re-analysis of the deposited data

Results flagged for a closer look

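Idi1 had 1 embryo far above the others in each of 2 groups. In Maternal_10Cyp, replicate 4 had 98.7 CPM and the next highest embryo 88.6 CPM (n = 8). In Paternal_10Cyp, replicate 4 had 110.8 CPM and the next highest 96.8 CPM (n = 10). In both the gap was large for the range of the group by Dixon's test. The 7 genes were each tested in the 3 groups of 8 to 10 libraries, which gave these 2 of 21, and chance alone singles out about 1 in 20. The other 4 groups, of 12 libraries each, were not tested in this way. Among them is Paternal_0.3Cyp, where replicate 8 had 37.0 CPM of Lss and the next lowest embryo 64.3 CPM.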

How the results depend on the processing

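Counts are of the 7 genes called, in the order Paternal_0.3Cyp, Maternal_0.3Cyp, Both_0.3Cyp, Paternal_10Cyp, Maternal_10Cyp and Both_10Cyp, with 5, 5, 2, 3, 5 and 4 as the base. DESeq2 size factors, no filter and thinning kept each count within 1.5 times. Limma called 4 in Both_0.3Cyp, and for the both-parents term at dose 0.3 limma called 6 and DESeq2 5, against 0 in edgeR. Limma also called 1 gene between the paternal doses. A fit of the compared groups only called 0 in Paternal_0.3Cyp, 4 in Both_0.3Cyp and 1 in Both_10Cyp. Without the batch term 1 was called in Both_10Cyp. Batch 1 alone called 0 in all 6 groups, 0 in the joint test and 0 in the dose 10 both-parents term, with 16 of 42 gene tests at an unadjusted p under 0.05. Batch 2 alone called 1 in Paternal_0.3Cyp, 2 in the joint test and 0 in that term. With 2 surrogate variables the counts were 0, 0, 0, 0, 1 and 0, with 0 in the joint test and 0 in that term, and 18 of 42 at an unadjusted p under 0.05. With the globin ratio they were 1, 2, 0, 1, 3 and 2, with 1 in the joint test and 1 in that term. Without the libraries high in embryonic globin 3 were called in Paternal_0.3Cyp and 0 in Both_10Cyp, and without those high in diencephalon markers 3 in Paternal_0.3Cyp, 1 in Paternal_10Cyp and 2 in Both_10Cyp. The cause of these shifts was not tested, and the share of all genes called under each setting is not given here. The tests of dose, parent, sex and the interactions gave 0 under every other setting run.

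Leaving out 1 library at a time gave ranges of 4 to 5, 4 to 5, 2 to 3, 1 to 3, 4 to 5 and 0 to 5, with 3 to 6 in the joint test, 0 to 5 in the both-parents term at dose 0.3 and 1 to 3 at dose 10. The other dose, parent and sex tests stayed at 0 to 0. Paternal_10Cyp had 1 call without replicate 1, 2, 5 or 6 of its own or Ctrl replicate 3, 7, 8 or 12. Both_10Cyp had 0 without its replicate 7 or 8, 1 without its replicate 1 or 2 or Ctrl replicate 3, 7, 8, 9 or 12, and 2 without its replicate 9 or Ctrl replicate 10. The joint test had 3 without Ctrl replicate 7, 8 or 12. The dose 0.3 term had 4 without Ctrl replicate 6 or Paternal_0.3Cyp replicate 9 and 5 without Paternal_0.3Cyp replicate 1 or 2, and the dose 10 term had 1 without Both_10Cyp replicate 4 or 6. The interactions were not run this way.

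The replicate numbers are not stated to pair the embryos. Over 210 same-numbered pairs the correlation of deviations ran from -0.798 to 0.807 (median 0.111), and 110 exceeded 0.1. Differently numbered pairs were not compared, so these values cannot show whether the numbers pair embryos. With a replicate block the counts were 5, 5, 2, 1, 5 and 1, with 1 in the dose 10 both-parents term and 5 in the joint test.

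Only values that were not called changed sign. Insig1 in Paternal_0.3Cyp (-0.0087) was 0.011 in batch 1 alone, 0.036 with surrogate variables, 0.036 with the globin ratio, 4.1e-05 without the high-globin libraries and from -0.027 to 0.0064 when 1 library was left out (Paternal_0.3Cyp replicate 8 at the top). Insig1 in Maternal_0.3Cyp was 0.021 with surrogate variables and 0.0095 with the globin ratio. With surrogate variables Idi1 was 0.014 in Both_0.3Cyp and 0.017 in Maternal_10Cyp, and Sqle was 0.019 in Paternal_10Cyp. In batch 1 alone Fdft1 was 0.00034 in Paternal_10Cyp and Insig1 was -0.016 in Maternal_10Cyp. Insig1 in Both_10Cyp was -0.0046 with the block and from -0.011 (without Both_10Cyp replicate 6) to 0.034 when 1 library was left out.

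Depth limits these genes little, since the lowest had 637 counts in its poorest library. The limits lie in 8 to 12 embryos per group and in litters that the labels do not give. They also lie in globin and cell type markers that move with the exposed groups. Both batches occurred in every group, but within batch 1 edgeR called 0 of 7 genes in each exposed group.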
